A study of Mus musculus with 16 samples.

Results

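The Serpina1 genes of the mouse encode alpha-1-antitrypsin, the main protease inhibitor that hepatocytes release into plasma, and its close relatives. Serpins trap a target protease with an exposed loop, the reactive centre loop, which the protease cuts. Neutrophil elastase is the best known target of alpha-1-antitrypsin. A single human gene corresponds to a tandem array of near-identical genes in the mouse, and hepatocyte factors such as the C/EBP proteins are known to act at alpha-1-antitrypsin genes. The 6 genes described here, Serpina1a to Serpina1f, were taken by name and were present in both count tables, as 6 of 24421 rows in each.

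Messenger RNA of whole mouse liver was counted in 16 libraries, 4 in each of 4 groups. DKO livers had loxP-flanked (floxed) alleles of both Arid1a and Arid1b, written ARID1A f/f and ARID1B f/f, together with the Alb-Cre transgene, a Cre recombinase under the albumin promoter, which is active in hepatocytes. Deletion by cell type was not measured. Their controls had the same floxed alleles and were Alb-Cre-. BKO livers were ARID1B f/f and Alb-Cre+, and their controls were ARID1B f/f and Alb-Cre-. BAF, a chromatin remodelling complex, holds either ARID1A or ARID1B. The labels used here give no age, sex or treatment. Xist was present at 17511 to 86791 counts in all 16 libraries, and 4 Y-linked genes together had 0 or 1 count in each. Libraries are called by the animal tags of the labels, and no statement beyond those tags says that each came from a separate animal. If some did not, the p-values measure only the spread between libraries. Labels F5 and F5-2 of 2 BKO controls share 1 tag, so these may be 1 animal. With both summed as 1 library, 0 paralogs were called in BKO, as without summing, and the log2 fold changes ran from -0.08 for Serpina1e to 0.65 for Serpina1d.

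Levels below are normalized CPM, the counts per 1e+06 counts of a library, and errors are SD over n = 4 libraries unless stated. Tests within an experiment are edgeR quasi-likelihood tests across all genes, with p-values adjusted over all genes and called under 0.05. Arid1b was lower in both knockouts, at 44.3 ± 3.98 against 84.8 ± 2.01 CPM in BKO (adjusted p = 0.00154) and 60.03 ± 13.7 against 89.3 ± 9.17 CPM in DKO (adjusted p = 0.0167). Arid1a was not called in DKO livers, at 108 ± 6.08 against 124 ± 10.2 CPM (adjusted p = 0.149). Whole-gene counts include exons outside a floxed part and RNA of any cells without Cre activity, so they check the Arid1a deletion only in part. Totals per library were 8699417 to 11031443 counts for DKO and its controls and 21151726 to 40551934 counts for BKO and its controls. The hepatocyte markers Alb, Apoa1, Ttr, Trf, Tat, G6pc, Cps1 and Asgr1 were all present in every group.

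The 6 genes lie on the minus strand of chromosome 12, between positions 103688044 and 103958975 on GRCm38, a span of 270.9 kb that also holds 8 annotated pseudogenes. From the low coordinate the order is Serpina1f, Serpina1b, Serpina1d, Serpina1a, Serpina1c and Serpina1e. Serpina1a to Serpina1e had 96.3% to 98.5% identical coding bases in pairs. Serpina1f was a distant member, at 53.5% to 54.3% identity with the others. The paralogs differ most near the 3′ end of the coding sequence, where serpin genes encode the reactive centre loop. Among coding bases common to Serpina1a to Serpina1e, 86 positions varied, and 17 of these fell in a single window of 45 bases. The window is shown because it is where these 5 coding sequences differ most. It covers coding bases 1116 to 1160 of 1239 in each gene, or 1185 to 1229 of 1308 in Serpina1a, read from the GENCODE M21 transcripts, and capitals mark the positions that differ among the 5.
Serpina1a: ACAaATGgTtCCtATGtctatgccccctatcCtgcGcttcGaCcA
Serpina1b: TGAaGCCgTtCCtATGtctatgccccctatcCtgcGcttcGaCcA
Serpina1c: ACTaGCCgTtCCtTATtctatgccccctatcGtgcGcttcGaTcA
Serpina1d: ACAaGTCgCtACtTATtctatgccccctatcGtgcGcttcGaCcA
Serpina1e: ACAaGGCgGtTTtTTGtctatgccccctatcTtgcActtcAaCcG

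The likeness of the paralogs sets how well reads can be assigned to one gene. Of all stretches of 50 bases in its transcripts, Serpina1c shared the most with other genes, and 20.7% were found in no other gene. The share was 32.6% for Serpina1a, 49.1% for Serpina1d, 52.9% for Serpina1b, 62.1% for Serpina1e and 100% for Serpina1f. With stretches of 100 bases it rose to 30.7% for Serpina1c, 50.1% for Serpina1a and 81.8% for Serpina1e. Serpina1a and Serpina1c shared most of their non-unique stretches with each other, so their separate values are the least certain of the 6. Serpina1b is annotated with a body that spans Serpina1d and 3 further genes on the same strand, and Serpina1c has an antisense gene, B430119L08Rik. The sources used here do not give the treatment of shared reads or strand in the deposited counts.

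The promoters of Serpina1a to Serpina1e are close copies of each other. They are shown because genes with near-identical proximal promoters had very different values in DKO livers. RefSeq promoter windows on GRCm38.p6 matched all 6 genes. Each line gives 100 bases on the minus strand, with capitals at the 10 positions that differ among the 5. The lines end 2 to 13 bases before the start site of the RefSeq window, and 64 bases before it for Serpina1e. They lie at chr12:103738202-103738301 for Serpina1b, chr12:103773636-103773735 for Serpina1d, chr12:103863627-103863726 for Serpina1a, chr12:103904964-103905063 for Serpina1c and chr12:103956962-103957061 for Serpina1e. The GENCODE M21 genes Serpina1b and Serpina1e start further upstream, at positions 103830373 and 103958975. The stretches of these 2 genes therefore lie inside their GENCODE bodies, and the start site in use was not tested.
Serpina1b: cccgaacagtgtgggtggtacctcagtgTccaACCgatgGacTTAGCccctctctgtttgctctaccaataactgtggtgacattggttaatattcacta
Serpina1d: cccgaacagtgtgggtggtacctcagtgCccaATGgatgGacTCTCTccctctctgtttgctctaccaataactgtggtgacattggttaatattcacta
Serpina1a: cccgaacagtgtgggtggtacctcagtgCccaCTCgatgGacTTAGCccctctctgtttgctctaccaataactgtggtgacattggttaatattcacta
Serpina1c: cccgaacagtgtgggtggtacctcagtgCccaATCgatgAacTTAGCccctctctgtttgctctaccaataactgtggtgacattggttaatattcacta
Serpina1e: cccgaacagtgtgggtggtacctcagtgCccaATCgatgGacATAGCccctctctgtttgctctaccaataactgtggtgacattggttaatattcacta

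Serpina1b and Serpina1e differed at 3 of these 100 bases, and Serpina1b and Serpina1d at 7. Over the longer stretch covered in all 5 windows, Serpina1b and Serpina1e were the most alike pair, with 234 of 238 bases identical. Searched on both strands of the 300-base windows, the C/EBP letters TTGCNNAA were found in all but Serpina1c, against 10.8% of 32851 promoters. In Serpina1b, Serpina1d and Serpina1e the match lay in the same copied stretch, at -161, -149 and -211 from the start site. The match of Serpina1a lay elsewhere, at 25, past the start site. Matches in near-copies are not separate, so their number cannot be read against the share of all promoters. The STAT letters TTCNNNGAA were found in Serpina1f alone of the 6, against 8.30% of promoters. The HNF4 letters CAAAGTCCA were found in none of the 6, against 0.475% of promoters. These are matches of letters in a window and not binding sites.

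The paralogs differed from each other in DKO livers. Serpina1e nearly disappeared, Serpina1c, Serpina1a and Serpina1d fell, Serpina1b did not pass the test, and Serpina1f, with 0 counts in all control livers, had a low level in every DKO library. Of Serpina1a to Serpina1e, 4 were lower and 1 was not called. Over all 12848 genes tested, 16.6% were called lower and 19.2% higher, with a median log2 fold change of 0.02. Serpina1f passed the count filter only through the DKO libraries, where it was high, so its values are given as a description with no test.

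Serpina1e, at the high-coordinate end of the cluster, was at 5.09, 11.2, 14.2 and 5.39 CPM in DKO-7068, DKO-7070, DKO-7112 and DKO-7137. Controls WT-7067, WT-7069, WT-7114 and WT-7139 had 294, 2256, 158 and 3183 CPM. The controls were themselves split, with WT-7067 and WT-7114 low and WT-7069 and WT-7139 high, and yet the lowest control was 11.1 times the highest DKO library. Mean levels were 8.99 ± 4.49 against 1473 ± 1490 CPM by edgeR, with a log2 fold change of -7.36, an SE of 1.196 and an adjusted p of 0.00232. All 4 DKO libraries were lower than every control. The ratio of means was 164-fold, and it rested on the high controls: it was 100.5-fold without WT-7139 and ranged up to 213-fold when another library was left out.
In raw counts Serpina1e had 52 to 131 counts in DKO libraries that held 27935 to 36041 counts of Serpina1b.

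Serpina1c was at 304, 318, 641 and 450.0 CPM in DKO-7068, DKO-7070, DKO-7112 and DKO-7137, against 1333, 1576, 1596 and 1523 CPM in controls WT-7067, WT-7069, WT-7114 and WT-7139. The groups did not overlap, and DKO-7112 was the DKO library nearest to the controls. The means, 429 ± 156 and 1507 ± 120.0 CPM, differed 3.52-fold, a log2 fold change of -1.81 (SE 0.24, adjusted p = 0.000278 by edgeR).

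Serpina1a was at 364, 431, 623 and 543 CPM in the DKO libraries in the same order, against 826, 1249, 1047 and 1523 CPM in the controls. Here too the groups were apart, with the lowest control 1.33 times the highest DKO library. The means were 490.02 ± 115 and 1161 ± 297 CPM, a 2.37-fold difference, or -1.24 in log2 fold change (SE 0.23, adjusted p = 0.00194 by edgeR). Since Serpina1a and Serpina1c share most of their transcript, these 2 falls cannot be told apart fully.

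Serpina1d was at 1273, 1116, 1619 and 1815 CPM in the DKO libraries, against 2715, 2286, 2554 and 2739 CPM in the controls. The groups did not overlap, and this was the smallest of the 4 falls, 1.77-fold from 2573 ± 208 to 1455 ± 319 CPM, with a log2 fold change of -0.82 (SE 0.18, adjusted p = 0.00577 by edgeR). The tags fall into a series WT-7067 to DKO-7070 and a series DKO-7112 to WT-7139, each with 2 DKO and 2 control libraries, and nothing in the labels says what the series are. Serpina1d was called within the first series, at a log2 fold change of -1.07 (edgeR adjusted p = 0.00622), and not within the second, at -0.62 (adjusted p = 0.0527). Within the first and the second series, the log2 fold changes were -1.39 and -1.14 for Serpina1a, -2.22 and -1.51 for Serpina1c and -7.29 and -7.41 for Serpina1e, all called.

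Serpina1b had the highest mean level per kilobase of exon in every group, with no correction for stretches shared between paralogs. It was at 2828, 2529, 3032 and 3734 CPM in the DKO libraries and at 3031, 3041, 2936 and 3701 CPM in the controls. The ranges lay over each other, with 1 high library in each group. The means were 3031 ± 512 and 3177 ± 352 CPM, and the log2 fold change of -0.07 (SE 0.17) had an adjusted p of 0.792 by edgeR. Its sign was not settled: the log2 fold change was -0.18 within the first tag series, 0.03 within the second and 0.10 when libraries were scaled by total counts.

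Serpina1f had 24, 29, 42 and 48 counts in DKO-7068, DKO-7070, DKO-7112 and DKO-7137, and 0 counts in all 4 controls. These are levels of 1.97, 2.61, 4.56 and 4.97 CPM, so every DKO library was above every control. Set against a floor of 3 counts over the control group, the DKO mean of 3.53 ± 1.46 CPM was at least 42.6-fold higher. The 0 counts of the controls allow up to 0.0828 CPM over that group. The 8 BKO experiment libraries, which were sequenced more deeply, also had 0 counts of Serpina1f.

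**Figure D1:**
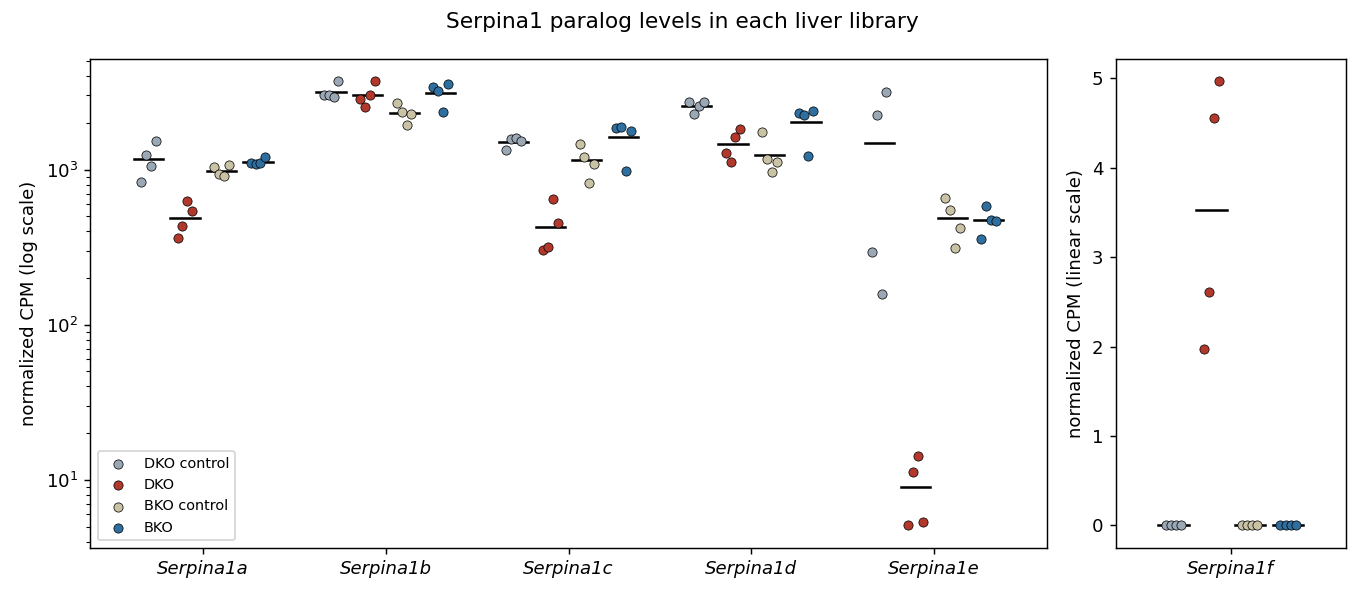
Normalized CPM of each Serpina1 paralog in each library, on a log scale for Serpina1a to Serpina1e and on a linear scale for Serpina1f, with points for libraries and lines for group means (4 libraries per group). DKO points of Serpina1e lie between 5.09 and 14.2 CPM while its controls spread from 158 to 3183 CPM, and Serpina1b points overlap between DKO and control.

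The summed family was at 5418 ± 998 CPM in DKO livers against 9892 ± 2114 CPM in controls, 1.83-fold lower, with no overlap between the groups. It made up 0.504% to 0.624% of all counts in DKO libraries and 0.776% to 1.15% in controls. The family mean fell by 4474 CPM, and 32.7% of this came from Serpina1e, 25.0% from Serpina1d, 24.1% from Serpina1c, 15.0% from Serpina1a and 3.27% from Serpina1b. The share of Serpina1e in this difference rested on controls WT-7069 and WT-7139, the libraries in which it was high. Albumin fell alongside, from 8.62% to 9.94% of all counts in controls to 3.76% to 6.38% in DKO libraries. In whole liver, fewer hepatocytes and less RNA per hepatocyte cannot be told apart.

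The make-up of the family is independent of library scaling. Serpina1b made up 56.2% ± 3.52 of the family's counts in DKO livers and 32.7% ± 4.08 in controls. Serpina1e made up 0.171% ± 0.0891 against 13.1% ± 12.03, and Serpina1c 7.82% ± 2.03 against 15.7% ± 2.99. The groups did not overlap for these 3 shares, and each gave a two-sided exact permutation p of 0.0286, the smallest that 4 against 4 libraries allow. Adjusted over the 11 shares tested in both experiments the exact p became 0.0786 for each, so none passed 0.05. Serpina1f made up 0.0633% ± 0.0168 in DKO livers and 0% in controls. Serpina1a made up 9.04% ± 1.33 against 11.7% ± 1.11 (exact permutation p = 0.0571, adjusted 0.105). The share of Serpina1d was 26.7% ± 1.04 against 26.9% ± 5.95 (exact permutation p = 0.943). These like means hide the split of the controls by Serpina1e. Serpina1d made up 33.1% and 30.8% in WT-7067 and WT-7114, where Serpina1e was low. It made up 22.0% and 21.6% in WT-7069 and WT-7139, where Serpina1e was high, while the DKO range was 25.3% to 27.7%. Serpina1b was split likewise, at 37.0% and 35.4% against 29.2% and 29.2%.

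**Figure D2:**
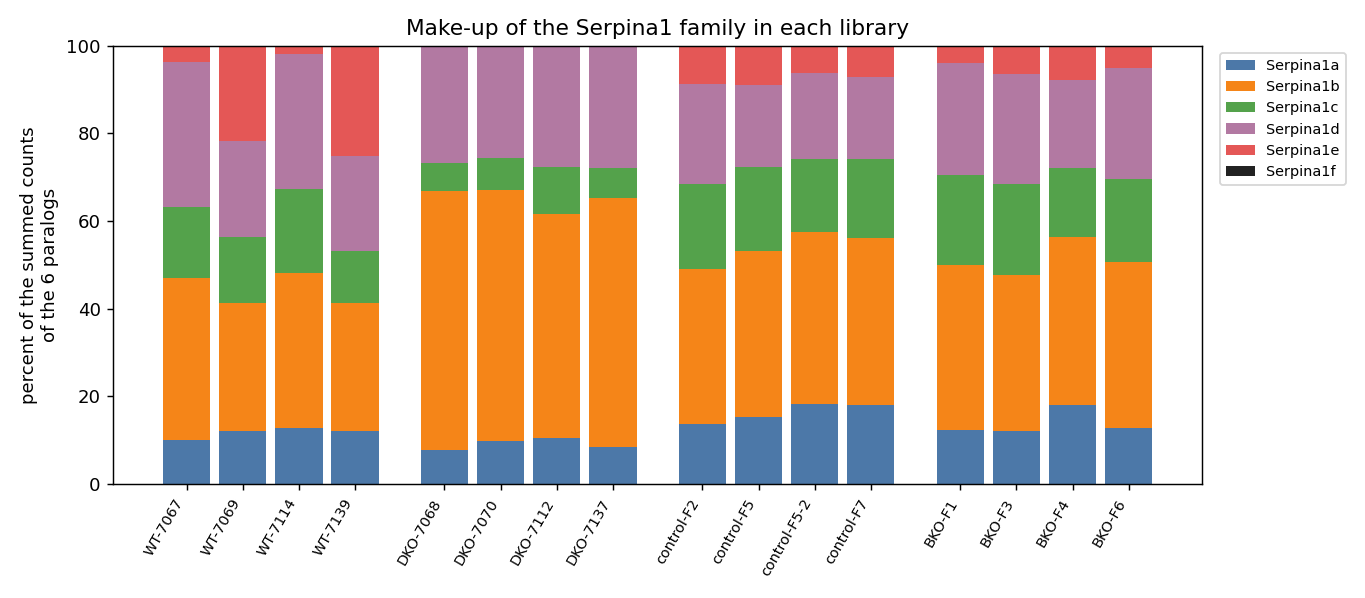
Percent of the summed counts of the 6 paralogs that each paralog takes, 1 stacked bar per library, grouped as DKO controls, DKO, BKO controls and BKO. Serpina1b takes 51.1% to 59.2% in the DKO bars against 29.2% to 37.0% in their controls, and the Serpina1e segment, up to 25.1% in WT-7139, is too thin to see in DKO, as is Serpina1f.

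The order of the paralogs was compared within each group on levels per kilobase of full exon length. These levels were not corrected for stretches shared between paralogs. Of stretches of 50 bases, 20.7% were found in no other gene for Serpina1c, 32.6% for Serpina1a and 52.9% for Serpina1b. If shared reads were left uncounted, the order could differ, also for the lead of Serpina1b. In DKO livers the order was Serpina1b at 2174 ± 368, Serpina1d at 1044 ± 228, Serpina1c at 315 ± 115, Serpina1a at 309.9 ± 73.0, Serpina1e at 6.94 ± 3.47 and Serpina1f at 1.12 ± 0.463 CPM per kilobase. Only the ranges of the neighbours Serpina1c and Serpina1a overlapped. In their controls Serpina1b led at 2279 ± 253 and Serpina1d followed at 1846 ± 150 CPM per kilobase, without overlap. Serpina1e at 1137 ± 1150 ranged from 122 to 2458 CPM per kilobase. Its range overlapped Serpina1b and Serpina1d above it and Serpina1c, at 1107 ± 88.1, below it. Its place by mean held in no single control. Serpina1e was under Serpina1a in WT-7067 and WT-7114 and next after Serpina1b in WT-7069 and WT-7139. Serpina1a followed at 734 ± 188 CPM per kilobase, under every library of Serpina1c but within the range of Serpina1e, and Serpina1f was last at 0.

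In BKO livers no paralog passed the test. The 5 that passed the count filter had log2 fold changes of 0.19 (SE 0.09) for Serpina1a, 0.43 (SE 0.14) for Serpina1b, 0.50 (SE 0.23) for Serpina1c, 0.71 (SE 0.24) for Serpina1d and -0.04 (SE 0.23) for Serpina1e. The edgeR adjusted p-values were 0.490, 0.250, 0.457, 0.295 and 0.970 in that order. Of 14061 genes tested in this experiment 0.583% were called in either direction, so a count of 0 among 5 is near that background. Serpina1f had 0 counts in all 8 libraries, which allows up to 0.0240 CPM over the BKO group and 0.0270 CPM over its controls.

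Serpina1d was at 2300.5, 2236, 1232 and 2375 CPM in F1, F3, F4 and F6, against 1743, 1162, 965 and 1110.1 CPM in controls F2, F5, F5-2 and F7. Serpina1c was at 1865, 1867, 972 and 1776 CPM in the BKO libraries, against 1472, 1198, 822 and 1086 CPM in the controls. F4 was the low BKO library for both genes and lay among their controls, while F1, F3 and F6 were above all 4 controls. Without F4 the log2 fold changes were 0.89 for Serpina1d (edgeR adjusted p = 0.0523) and 0.68 for Serpina1c (adjusted p = 0.101), still not called.

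Serpina1b was at 3410.04, 3194, 2359 and 3535 CPM in the BKO libraries and at 2678, 2356, 1939 and 2276 CPM in the controls, again with F4 the low BKO library. Serpina1a was at 1109, 1079, 1096 and 1199 CPM in BKO against 1035, 939.7, 902 and 1064 CPM in the controls. Its groups did not overlap, but the means, 1121 ± 53.6 and 985 ± 76.7 CPM, were only 1.14-fold apart. Serpina1e was at 357, 581, 476 and 466 CPM in BKO and at 657, 549, 311 and 423 CPM in the controls, with full overlap and without the wide split seen among the DKO controls. The summed family was at 8371 ± 1501 against 6172 ± 1090 CPM, 1.36-fold higher with overlap. No share passed the exact permutation test, and the nearest was Serpina1d at 23.97% ± 2.60 against 19.97% ± 2.05 (p = 0.0571, adjusted 0.105).

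Per kilobase, with no correction for shared stretches, Serpina1b led in BKO livers at 2241 ± 380 and in their controls at 1659 ± 218 CPM per kilobase. Serpina1e was last of the 5, at 363 ± 70.6 and 374 ± 116. Serpina1d, Serpina1c and Serpina1a lay between in both groups, in that order by mean. The range of Serpina1b reached down to 1692 CPM per kilobase in BKO livers, just under the highest Serpina1d library at 1704, and was apart from Serpina1d in the controls. The ranges of Serpina1d and Serpina1c overlapped in both groups, as did those of Serpina1c and Serpina1a.

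The difference between the DKO effect and the BKO effect was tested over all 16 libraries as an interaction. It was called lower for 4 paralogs: Serpina1c at -2.35 (SE 0.35, edgeR adjusted p = 0.000177), Serpina1e at -7.35 (SE 1.14, adjusted p = 0.000569), Serpina1a at -1.46 (SE 0.25, adjusted p = 0.000583) and Serpina1d at -1.56 (SE 0.31, adjusted p = 0.00164). Of 14050 genes tested 11.5% were called lower in this comparison. The difference for Serpina1b, -0.53 (SE 0.23), was not called at an adjusted p of 0.102. It was called without DKO-7137 (adjusted p = 0.0415) or without F4 (adjusted p = 0.0412). The fitted difference of Serpina1f was not called and is not given, since 3 of the 4 groups had 0 counts and its error was too large to be of use. With F5 and F5-2 summed the same 4 paralogs were called, from -1.43 for Serpina1a to -7.30 for Serpina1e. The 2 experiments came as separate tables of different depth, so each effect was taken against its own controls.

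**Figure D3:**
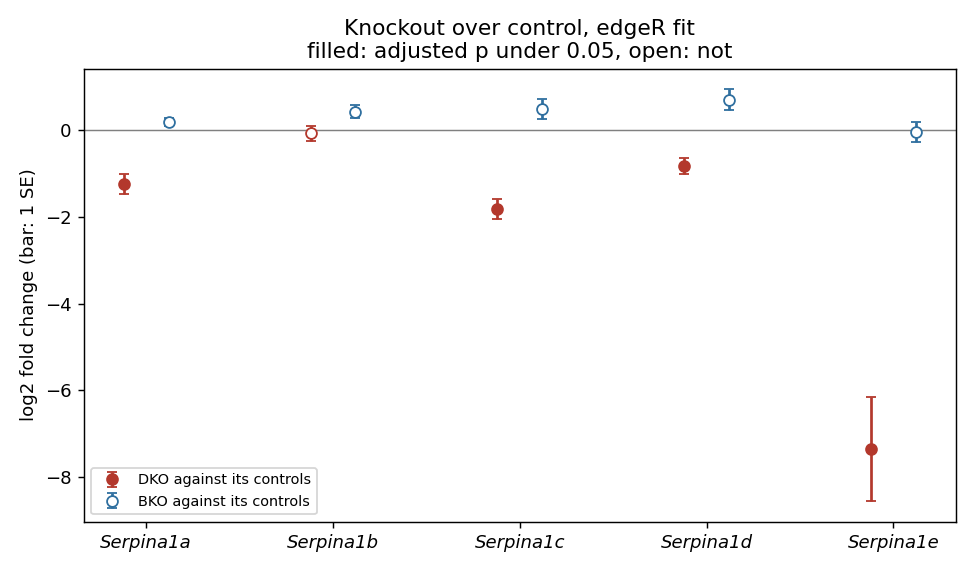
Log2 fold change of knockout over its own controls for Serpina1a to Serpina1e from the edgeR fits, with bars of 1 SE, red for DKO and blue for BKO, filled where the adjusted p was under 0.05. The DKO points fall from -0.07 for Serpina1b to -7.36 for Serpina1e, and the BKO points all lie between -0.04 and 0.71.

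Along the chromosome the DKO values of the 6 paralogs ran in the order of their positions. From the low-coordinate end, Serpina1f was present in DKO libraries alone, Serpina1b was at -0.07, Serpina1d at -0.82, Serpina1a at -1.24, Serpina1c at -1.81 and Serpina1e, 258.9 kb from Serpina1f, at -7.36 in log2 fold change. This is a description of 6 genes in 8 libraries, seen after their values were known, and it was not tested. The BKO values did not run in that order. Neighbours outside the cluster did not extend it. Serpina6, at -41.4 kb from Serpina1f, was at -2.11, Serpina10 beyond it at 1.39 and Serpina11, on the far side of Serpina1e, at -0.79. All were called by edgeR in DKO livers (adjusted p = 3.18e-05, 0.000170 and 0.0302). Serpina12, further out, was at -4.83. It passed the count filter only through the controls, where it was high, so its value is a description. Pseudogenes were not placed along the chromosome.

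**Figure D4:**
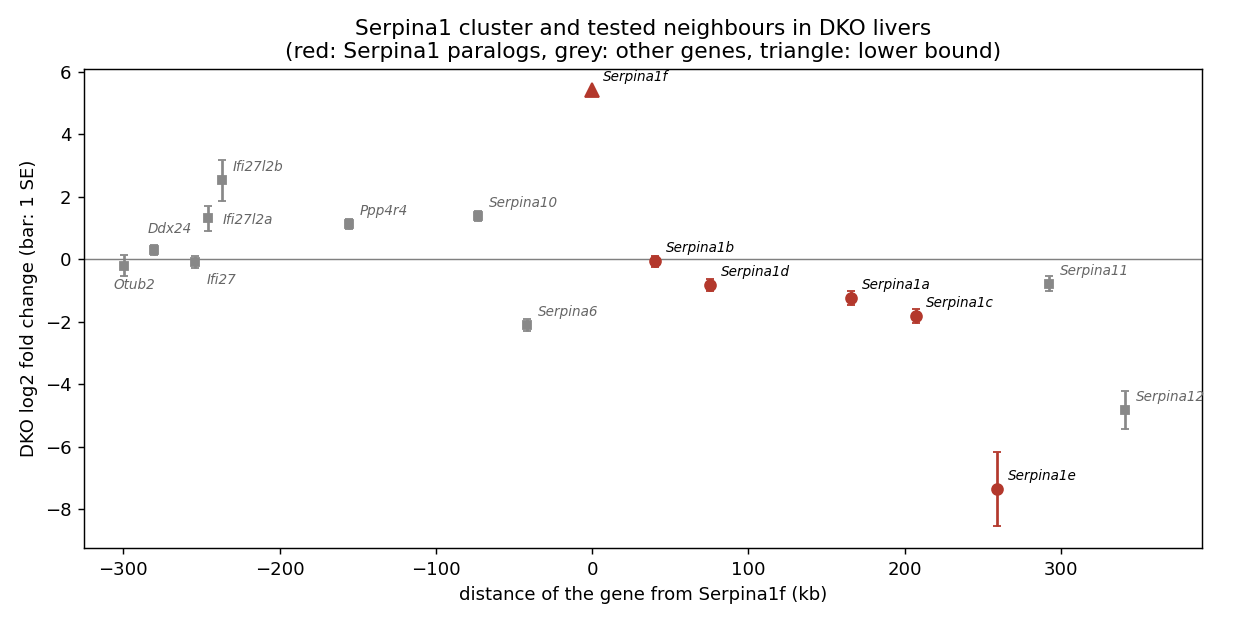
DKO log2 fold change of the Serpina1 paralogs (red) and of the tested genes around them, pseudogenes left out (grey), against distance from Serpina1f in kb, with bars of 1 SE. Serpina1f is drawn as a triangle at its lower bound of 42.6-fold; from it the red points fall in order of position to -7.36 for Serpina1e, and the grey neighbours on either side are out of that order.

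Other clade A serpins and genes near the cluster changed in both directions. Of 17 tested in DKO livers, 6 were higher and 6 lower, beside 19.2% and 16.6% of all genes, with a median log2 fold change of 0.31 beside 0.02. Some passed the count filter only through the group in which they were high, such as Serpina12 at 0.362 ± 0.559 against 9.91 ± 1.66 CPM. Serpina6, which encodes corticosteroid-binding globulin, was at 89.4 ± 19.7 against 385 ± 69.4 CPM. Serpina3n, an antichymotrypsin-like acute phase serpin, was at 3488 ± 1693 against 467 ± 60.5 CPM (edgeR adjusted p = 9.26e-05). Serpina10, the protein Z-dependent protease inhibitor, was at 427 ± 89.6 against 162 ± 17.0 CPM, and Serpina7, thyroxine-binding globulin, at 50.3 ± 13.7 against 5.39 ± 2.57 CPM (adjusted p = 0.000203). In BKO livers 0 of 19 were called by edgeR.

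Of 13 transcription factors known at alpha-1-antitrypsin genes, 2 were lower and 0 higher in DKO livers, a share near the 16.6% of all genes that were lower, with a median log2 fold change of -0.19. Cebpa, which encodes C/EBP-alpha, was at 153 ± 60.2 against 360.4 ± 38.8 CPM, a log2 fold change of -1.24 (SE 0.26, adjusted p = 0.00470 by edgeR). Stat5a, a signal-activated factor, was at 10.54 ± 2.43 against 18.2 ± 4.49 CPM (-0.79, SE 0.21, adjusted p = 0.0154 by edgeR). In BKO livers 0 of 13 were called.

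Of 15 genes for folding, export and degradation of secreted alpha-1-antitrypsin, 1 was lower and 0 were higher in DKO livers, beside 16.6% and 19.2% of all genes, with a median of -0.16. This was Edem1, which helps to send misfolded glycoproteins to degradation, at 222 ± 43.3 against 329.8 ± 44.1 CPM (-0.57, SE 0.16, edgeR adjusted p = 0.0203). In BKO livers 1 of 15 was called, beside 0.583% of all genes. It was Hspa5, the main chaperone of the endoplasmic reticulum, at 745 ± 92.8 against 449 ± 75.6 CPM (0.73, SE 0.13, adjusted p = 0.0315). Of 7 proteases that alpha-1-antitrypsin is known to inhibit, 3 were expressed enough to be tested, and all 3 fell in DKO livers, beside 16.6% of all genes. Tmprss6, a hepatocyte membrane protease, fell by 1.09 on the log2 scale, F11, which encodes coagulation factor XI, by 1.28 and Klkb1, plasma prekallikrein, by 0.66 (edgeR adjusted p = 0.000796, 0.00959 and 0.00805). Elane, neutrophil elastase, had 0 counts in all 8 libraries of the DKO experiment.

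Markers of other cells moved with the DKO group, and their counts stand beside 19.2% of all genes called higher and 16.6% lower. Of 8 hepatocyte markers 4 fell, and their summed level was 75380.5 to 94417 CPM against 123599 to 154078 CPM in controls. Of stellate cell and fibroblast markers 5 of 7 rose and 1 fell (1741 to 2556 against 280.4 to 439 CPM), of macrophage markers 6 of 9 rose (314 to 368 against 198 to 322 CPM) and of bile duct markers 2 of 3 tested rose (69.1 to 853 against 26.9 to 38.4 CPM). The bile duct sum was mostly Spp1, at 377 ± 331 CPM of a mean sum of 395 CPM in DKO libraries. In controls Spp1 was at 24.8 ± 3.02 CPM of 33.7 CPM. Tspan8 also rose from few counts, and Sox9 was not called (-0.003), so a rise of bile duct cells cannot be read from this sum. Both tested neutrophil markers, S100a8 and S100a9, rose. The neutrophil sum was 6.82 to 38.0 against 0.896 to 1.23 CPM, with Elane at 0 in both groups and Ltf at 0 in the controls. S100a8, S100a9, Tspan8, Cx3cr1, Trem2, Mmp12 and Gpnmb had only 3 to 25 counts each over the control group. These genes passed the count filter only through the DKO libraries, where they were high. Their calls are therefore a description and give no support as tests. In BKO livers 0 of the markers tested in these lists were called. The part of these cell changes in the Serpina1 values was not tested.

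The genes whose levels ran most like each paralog over the 16 libraries, after the mean of each experiment was subtracted, were found among 12000 genes. For Serpina1e they were Itpr2 (Pearson r = 0.962), Erc1 (0.962) and Cyp7b1 (0.953), and for Serpina1c Stard4 (0.950), Slc25a45 (0.947) and Dvl1 (0.945). For Serpina1a they were Colec10 (0.956), Aars2 (0.949) and Thrb (0.948). Serpina1d ran most like Calr3 (0.894), Tank (0.874) and Serpina1c (0.871), and Serpina1b like Mtdh (0.896), Spryd7 (0.856) and Ube2k (0.855). For the summed family they were, among 11996 genes, Pcnp (0.903), Ganab (0.889) and Actr1a (0.887). These are descriptions over libraries that share the DKO difference and the library scaling. With each group's own mean subtracted, a choice made after the values were seen, Serpina1b and Serpina1d ran together (0.906) and Serpina1d and Serpina1e did not (0.03). These were the highest and the lowest r among pairs of Serpina1a to Serpina1e, and Serpina1c and Serpina1d were at 0.837. Of the 50-base stretches of Serpina1d, 37.7% also occur in Serpina1b, so reads shared by this pair may add to its r.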

How the data were processed

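The deposited values were whole-number counts per gene, 1 table per experiment, not normalized. Per the labels' protocols, TRIzol was used for extraction and a NuGEN Ovation kit for the libraries. The submitters' processing notes name featureCounts 1.6.2, HISAT2 2.1.0 and Trim Galore 0.4.1. The sources used here do not give the gene annotation, the strand setting or the treatment of reads shared between paralogs. Groups follow the labelled genotype, and 0 columns lacked a sample. Among the BKO names, 27 had become dates, and the joint fit used 24394 shared names.

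Tests ran in R 4.3.3 and edgeR 4.0.16 (filterByExpr, TMM, robust quasi-likelihood fit, Benjamini-Hochberg over all genes tested). An SE is the absolute log2 fold change over the root of F. CPM are counts per TMM-scaled library, and folds are ratios of mean CPM. An empty group was set to 3 counts over the group. Shares of the family total were compared by two-sided exact permutation of libraries. The fits were also run on simulated counts with the same spread set for every gene, unlike these data. That run checked the code and not the calls reported here. No 2 libraries agreed within sampling noise: the chi-square per degree of freedom ran from 7.32 (DKO-7068 and DKO-7070) to 122, and all were kept. Exon lengths and coding sequences came from GENCODE M21 transcripts with a RefSeq match, aligned with mafft 7.526. Protein sequences were not used here, and loops were described on coding bases. Likeness used log2 of CPM plus 0.5. Alternatives were other scalings, filters and tests (DESeq2 1.42.0, limma 3.58.1 with voom), single libraries left out, all 16 libraries in 1 fit, the tag series, F5 and F5-2 summed and, added after the data had been seen, DKO-7068 and DKO-7070 summed. Named genes were all 6 paralogs, the targeted genes, up to 4 called genes per list by adjusted p, all tested genes of lists with fewer than 4 tested, and the 3 genes most like each paralog. Serpina11, Serpina12, Serpina4-ps1 and the markers with few control counts were named after their values were seen. One gene of the list of transcription factors is not reported here. The paralogs and lists were chosen with earlier results of these data known.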

Additional observations from a re-analysis of the deposited data

Results flagged for a closer look

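The effect of the double knockout differed from that of the ARID1B knockout for 4 paralogs by the edgeR interaction test, with log2 differences of -1.46 for Serpina1a, -2.35 for Serpina1c, -1.56 for Serpina1d and -7.35 for Serpina1e. Within groups, 5 of 48 sets of 4 libraries held a library far from the other 3, where chance gives about 1 in 20. The 48 include the Serpina1f sets of the DKO controls, BKO and BKO controls, which were all 0 and could hold no such library. BKO library F4 accounted for 4 of the 5: Serpina1c at 972 CPM, Serpina1d at 1232 CPM, the family share of Serpina1d at 20.1% and that of Serpina1a at 17.9%. The other was WT-7139, with Serpina1b at 3701 CPM. The 4 sets of F4 are not independent, since a low Serpina1c and Serpina1d raise the share of Serpina1a.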

How the results depend on the processing

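The calls of Serpina1a, Serpina1c and Serpina1e in DKO livers held in all 20 alternatives run, and that of Serpina1d in 19. The exception was the contrast within the series DKO-7112 to WT-7139 (-0.62, edgeR adjusted p = 0.0527). The log2 fold changes ranged from -1.41 to -1.08 for Serpina1a, -2.22 to -1.51 for Serpina1c, -1.07 to -0.62 for Serpina1d and -7.74 to -6.56 for Serpina1e. Serpina1b changed sign with total counts (0.0996) and in the series DKO-7112 to WT-7139 (0.0278), and ran from -0.19 to 0.0058 with single libraries left out. Its difference between experiments ran from -0.65 to -0.46 with single libraries left out, called without DKO-7137 or F4, and from -0.65 to -0.27 over all alternatives. Serpina1e in BKO ran from -0.21 to 0.14. The share of Serpina1d in DKO differed from its controls by 0.066 percentage points when shares were taken of counts per kilobase, against -0.14 for shares of counts. The DKO count of 4604 genes was 2977 in the series WT-7067 to DKO-7070 and 2588 in the other, with fewer libraries compared. Both series were contrasts within 1 fit to all 8 libraries of the DKO experiment, so the spread was estimated from both series together. The BKO count of 82 was 356 with DESeq2 and 50 with all libraries in 1 fit, and ran from 17 to 104 with single libraries left out: 17 without F1, 29 without F6, 31 without F2, 40 without F3 and 51 without F7. The cause was not tested. In BKO 0 paralogs were called after adjustment. Before adjustment, 1636 of 14061 genes tested by edgeR had a p under 0.05, and Serpina1b and Serpina1d were among them. Serpina1a, Serpina1c and Serpina1e were not. Scaling by total counts moved the median of all genes in DKO from 0.02 to 0.20 and the share of calls that were higher from 53.6% to 72.0%; for the difference, the median became 0.27 and that share went from 49.1% to 77.9%, and in BKO it went from 31.7% to 20.4%. The groups share no replicate numbers, so libraries were not paired. With the tag series as a term, 4816 genes were called in DKO, and Serpina1a (-1.26), Serpina1c (-1.87), Serpina1d (-0.85) and Serpina1e (-7.35) were called lower. Depth limits Serpina1f, at 24 to 48 counts in DKO libraries, and intervals at the floor cover counting error only.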
